A study of Mus musculus with 2 samples.

Results

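Chemokines are small secreted proteins that draw leukocytes along a gradient, and 10 of them (Ccl2, Ccl3, Ccl4, Ccl5, Ccl7, Ccl12, Ccl24, Cxcl2, Cxcl10 and Cxcl12) were followed here through the cells of the mouse spinal cord. The members were all genes whose symbol in the deposited gene lists is on that list, and 10 of the 27998 genes counted matched, each at 1 gene identifier. The data were 3′ single-cell RNA counts of YFP+ cells sorted from Cx3cr1-CreERT2-YFP::flxRunx1 mice on a C57BL/6J background. The library labelled knock-out came from mice given tamoxifen, at 1 mg per day in 5 daily injections, to delete the transcription factor Runx1, and the library labelled wild type came from mice of the same labelled transgenic strain given vehicle. Cells of both were taken 4 weeks after the first injection. The Cre recombinase and the YFP are driven from Cx3cr1, a gene of microglia and of other myeloid and natural killer cells, so the driver is not limited to microglia. Ages, sexes and the number of animals in each library are not stated in the sources used here.

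Members fall into groups by the cells they attract. Ccl3, Ccl4 and Ccl5 draw T cells and macrophages, while Ccl2, Ccl7 and Ccl12 bind Ccr2, the receptor that brings monocytes out of the blood, and Ccl24 binds Ccr3 on eosinophils. Cxcl2 binds the neutrophil receptor Cxcr2, Cxcl10 binds Cxcr3 on activated T cells, and Cxcl12 binds Cxcr4 and the scavenger Ackr3 and is made steadily by blood vessel cells. Microglia and macrophages switch many of the inflammatory members on within hours through NF-kB and AP-1 factors, and Cxcl10 also through interferon signalling, and tissue dissociation is itself a known trigger.

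The CC members other than Ccl24 lie in groups of neighbours on chromosome 11 of GRCm38: Ccl2 at chr11:82035571-82037453, Ccl7 at chr11:82045712-82047525 and Ccl12 at chr11:82101845-82103400 on the plus strand, and Ccl5 at chr11:83525778-83530518 and Ccl3 at chr11:83647844-83649355 on the minus strand beside Ccl4 at chr11:83662584-83664683 on the plus strand. Ccl24 lies at chr5:135569937-135573049 on the minus strand, Cxcl2 at chr5:90903871-90905938 on the plus strand, Cxcl10 at chr5:92346638-92348889 on the minus strand and Cxcl12 at chr6:117168535-117181367 on the plus strand, in GENCODE M21. Ccl2 overlaps Gm17268 and Cxcl10 overlaps Art3, in each case on the opposite strand, and the sources used here do not say whether counting used the strand. RefSeq windows on GRCm38.p6, from 250 bases before to 50 bases after the start, were at hand for 5 members (Ccl3, Ccl12, Cxcl2, Cxcl10 and Cxcl12). The 3 that held a searched motif are shown. The Runx motif was included because Runx1 is the targeted gene, and the others because NF-kB, AP-1 and interferon factors regulate inflammatory chemokines. Capitals mark matches on either strand of the kB-type GGGNNNTTCC, the Runx core TGTGGT, the AP-1 motif TGANTCA and the interferon-type GAAANNGAAA. The windows are chr11:83649329-83649628 on the minus strand for Ccl3, chr5:90903649-90903948 on the plus strand for Cxcl2 and chr5:92348840-92349139 on the minus strand for Cxcl10.
Ccl3: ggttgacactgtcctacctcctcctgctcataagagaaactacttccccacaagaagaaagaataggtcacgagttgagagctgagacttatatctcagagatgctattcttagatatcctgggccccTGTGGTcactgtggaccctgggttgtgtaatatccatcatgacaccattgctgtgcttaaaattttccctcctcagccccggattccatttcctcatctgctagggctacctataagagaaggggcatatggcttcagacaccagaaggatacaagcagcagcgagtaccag
Cxcl2: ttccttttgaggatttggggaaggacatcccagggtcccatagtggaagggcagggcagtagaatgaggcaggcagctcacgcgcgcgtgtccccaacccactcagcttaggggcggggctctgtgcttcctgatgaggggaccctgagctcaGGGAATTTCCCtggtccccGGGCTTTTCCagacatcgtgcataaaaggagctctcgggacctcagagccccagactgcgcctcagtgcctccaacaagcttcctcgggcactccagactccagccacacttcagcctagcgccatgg
Cxcl10: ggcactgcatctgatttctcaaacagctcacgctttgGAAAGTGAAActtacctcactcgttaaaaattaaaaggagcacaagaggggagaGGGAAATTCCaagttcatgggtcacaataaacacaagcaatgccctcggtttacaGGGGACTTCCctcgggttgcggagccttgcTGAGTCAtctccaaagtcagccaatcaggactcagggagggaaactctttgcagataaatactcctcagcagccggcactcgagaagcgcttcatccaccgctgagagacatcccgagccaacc
Cxcl2 held 3 kB-type matches, of which 2 overlap as the same bases read on both strands. Cxcl10 held 2 kB-type matches, 1 AP-1 match and 1 interferon-type match, and Ccl3 held 1 Runx match. Of 32851 windows of the same length, 5.56% held the kB-type letters, 16.8% the Runx letters, 7.81% the AP-1 letters and 3.44% the interferon-type letters. The Ccl12 and Cxcl12 windows held none of these letters.

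The library labelled knock-out had 2604 barcodes with 13075939 UMIs (molecules counted by unique identifiers) and the library labelled wild type 4582 barcodes with 37446978 UMIs, with medians of 3715.5 and 6376 per barcode. After a filter on genes and mitochondrial UMIs, 2596 and 4582 were kept, and 9 barcode sequences occurred in both libraries. Runx1 itself stood at 180 CPM (UMIs of a gene scaled to 1000000 UMIs) in microglia-like cells labelled knock-out and at 93.0 CPM in those of the library labelled wild type. It was not lower where its deletion is labelled, and 3′ tags may lie outside the deleted part and then check nothing, so the libraries are named by their labels throughout. With 1 library in each group there was no test of any difference between them: intervals are 95% intervals that cover counting error only, and animal, treatment, library and depth cannot be told apart. Clusters were made without the chemokine genes, so that their levels did not define the classes.

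Microglia-like cells numbered 1353 of the library labelled knock-out and 2172 of the library labelled wild type, with medians of 3464 and 5499.5 UMIs, and they came from different clusters: cluster 2 held 1350 of the first and cluster 0 held 2158 of the second. Endothelial-like cells numbered 832 and 1621, although the sort was for YFP, and pericyte or smooth muscle-like cells 140 and 195. The 12 microglia markers summed to 27557 and 24078 CPM in the microglia-like class, with none at 0. In the same class the 9 endothelial markers summed to 2113 CPM in the library labelled knock-out and 6432 CPM in the library labelled wild type, with 9 of 9 lower in the first and none at 0. By these markers free RNA could make up as much as 19.98% of microglia-like UMIs in the library labelled knock-out and 50.1% in the library labelled wild type, which are upper estimates. The unnamed class, nearly all cluster 4, held 149 and 477 cells, of which 46 and 152 were among those with the highest doublet scores. It carried 12801 and 13818 CPM of endothelial markers beside 14676 and 15692 CPM of microglia markers, and the part of doublets in its chemokine levels was not tested. No cluster was named border-associated macrophage, a population that makes several of these chemokines.

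Taken as a set, the members made up 1.34% of all microglia-like UMIs in the library labelled knock-out and 1.16% in the library labelled wild type, and Ccl3 and Ccl4 supplied 92.5% and 90.9% of that. By UMIs Ccl4 ranked 4 among the genes of the class in the library labelled knock-out and 9 in the library labelled wild type. In 3′ counts each molecule gives a tag at its end, so levels were not divided by gene length, although capture still differs between genes. Besides Ccl3 and Ccl4, 2 members (Ccl2 and Ccl12) stood above 200 CPM in the library labelled knock-out, and 2 (Ccl12 and Cxcl12) in the library labelled wild type.

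The distribution over classes split the members. For 9 of them the level in microglia-like cells was above that of endothelial-like cells in each library, and for Cxcl12 the order was the opposite. Microglia-like cells were not always the highest class. Cycling cells stood above them, without overlap, for Ccl12 labelled knock-out, at 644 CPM (491 to 829) against 215. In the library labelled wild type they did so for Ccl3 (4377 against 3752 CPM), Cxcl10 (192 against 82.3) and Ccl5 (123 against 40.9). The 27 Ccl5 UMIs of cycling cells there lay in 15.8% of 19 cells, so this level rested on few cells. Unnamed cells led for Ccl5 labelled knock-out. Neutrophil-like cells led for Cxcl2, with intervals that overlap those of microglia-like cells. They numbered 1 labelled knock-out and 6 labelled wild type, with 1 and 9 Cxcl2 UMIs. Ccl4 stood at 9400 CPM (9323 to 9477) in microglia-like cells and 9005 (8406 to 9635) in the 13 cycling cells of the library labelled knock-out, which overlap, and next at 3851 in unnamed cells, 1674 in pericyte or smooth muscle-like cells, and 1318, 1275 and 1223 CPM in erythrocyte-like, ependymal-like and endothelial-like cells, whose intervals overlap. In the library labelled wild type it stood at 6830 CPM (6789 to 6872) in microglia-like cells, 6218 (5892 to 6557) in the 19 cycling cells, 3616 in unnamed cells, 2013 in pericyte or smooth muscle-like cells and 1532, 1488 and 1379 CPM in ependymal-like, endothelial-like and erythrocyte-like cells, the last 3 again overlapping. Endothelial-like cells thus held 0.130 and 0.218 times the microglia-like Ccl4 level, beside 0.123 and 0.342 for the summed microglia markers, which endothelial cells should lack. For Ccl3 that ratio was 0.0932 and 0.244, for Ccl2 0.0841 and 0.135, and for Ccl12 0.105 and 0.222. In the library labelled knock-out the intervals of 4 members lay above that of the markers: Ccl4, Cxcl10 at 0.186 (0.135 to 0.252), Ccl7 at 0.221 (0.135 to 0.347) and the low-count Ccl5 at 0.364 (0.205 to 0.615). In the library labelled wild type Ccl5 alone did so, at 0.519 (0.447 to 0.602), while Cxcl10 had 0.337 and Ccl7 0.269. What these UMIs in endothelial-like cells came from was not tested.

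**Figure D1:**
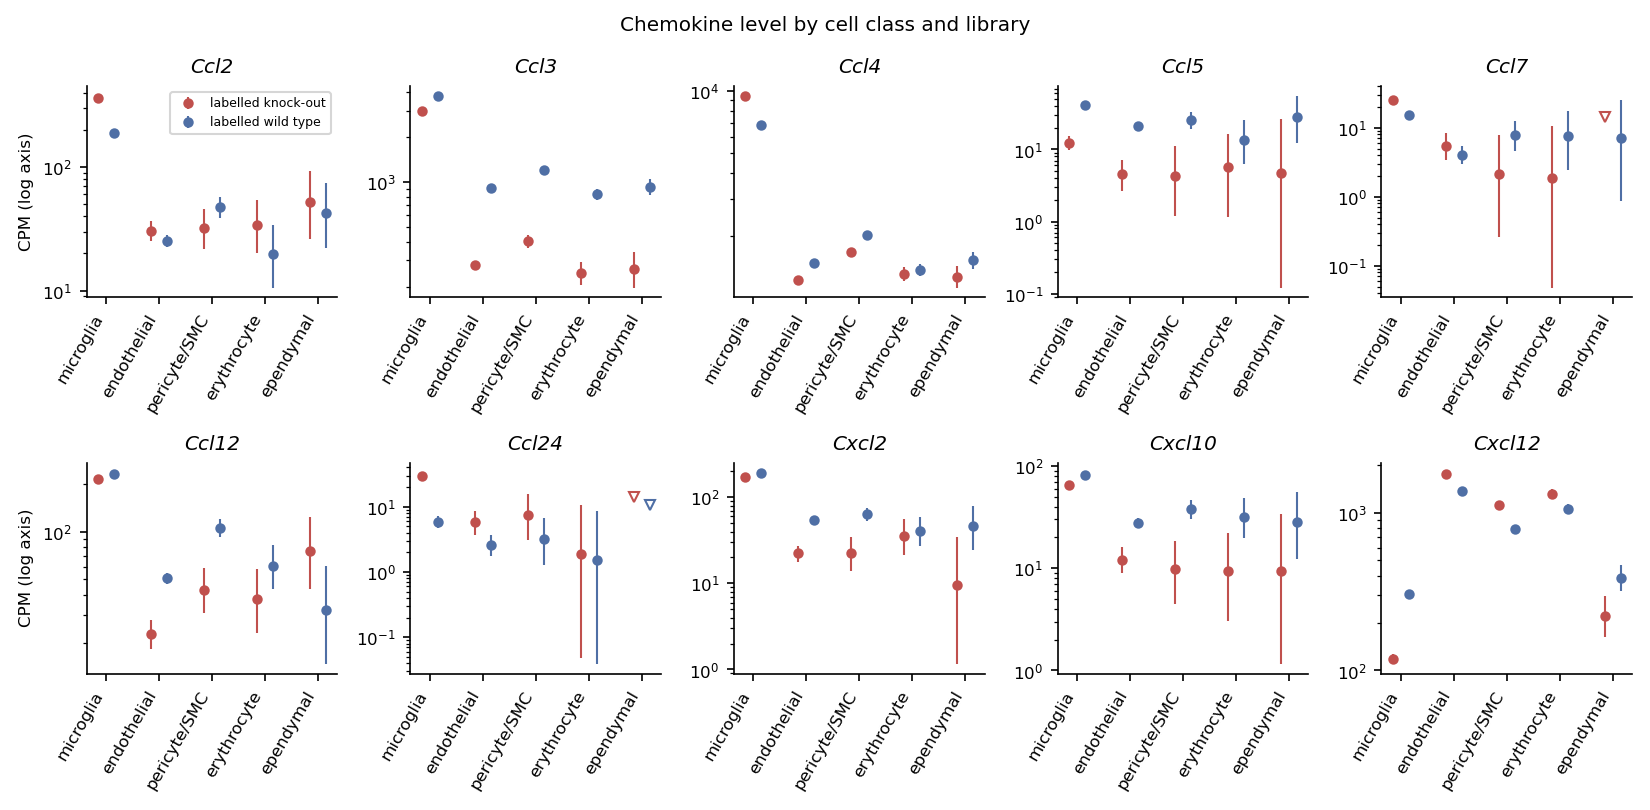
CPM of each chemokine on a log axis (1 panel per gene, with its own scale) in 5 cell classes, red for the library labelled knock-out and blue for the library labelled wild type; bars are exact Poisson intervals for counting error and open triangles are upper limits for a count of 0. Of the 5 classes drawn, microglia-like cells have the highest point in 9 panels, with Ccl4 at 9400 and 6830 CPM. Cxcl12 is highest in endothelial-like cells, at 1768 and 1367 CPM. Cycling, neutrophil-like, oligodendrocyte-like and unnamed cells are not drawn.

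Between the libraries, the members of the microglia-like class did not move together. Ccl2, Ccl4, Ccl7 and Ccl24 stood higher in the library labelled knock-out and Ccl3, Ccl5, Cxcl2, Cxcl10 and Cxcl12 were lower. With Ccl12, whose small difference turned its sign in 2 of the alternatives, 4 members had a log2 ratio above 0 and 6 below, each with an interval that excludes 0, and in those alternatives 5 were above 0. Among the 5745 genes with at least 20 CPM in 1 of the libraries, the shares with such intervals were 29.6% above and 36.1% below 0, so neither direction of the members can be read as more than a description. Past a 2-fold difference, 1 member was higher (Ccl24), where the background was 1.83% of genes, and 2 were lower (Ccl5 and Cxcl12), where it was 5.31%. The median log2 ratio was -0.12 over the members and -0.04 over all genes compared. All 10 members passed the filter on low values, Ccl24 and Ccl7 through the library labelled knock-out alone and Ccl5 through the library labelled wild type alone, so each of these 3 had to stand higher where it passed.

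Ccl4 and Ccl3 differed in direction. Ccl4 (macrophage inflammatory protein 1 beta) had 9400 CPM in the library labelled knock-out and 6830 CPM in the library labelled wild type, a log2 ratio of 0.46 (0.45 to 0.48). Ccl3 (macrophage inflammatory protein 1 alpha), its neighbour on chromosome 11, had 2991 and 3752 CPM, a log2 ratio of -0.33 (-0.35 to -0.30). The pair was thus unequal: there were 3.14 (3.09 to 3.20) Ccl4 UMIs per Ccl3 UMI in the library labelled knock-out and 1.82 (1.80 to 1.84) in the library labelled wild type. This ratio within a cell does not depend on how libraries are scaled. Of cells with at least 10 UMIs of the pair, 1121 and 2064 in number, 95.1% of those labelled knock-out and 83.6% of those labelled wild type had more Ccl4 than Ccl3 UMIs. Cell by cell, Ccl4 took a median of 78.6% (10th to 90th percentile 59.1 to 93.8%) of the pair's UMIs in the library labelled knock-out and 64.9% (44.4 to 80.3%) in the library labelled wild type, ranges that overlap. The same inequality appeared in the UMIs of classes that should not make these genes: 4.39 Ccl4 UMIs per Ccl3 UMI in endothelial-like, 4.16 in pericyte or smooth muscle-like, 5.36 in erythrocyte-like and 4.89 in ependymal-like cells labelled knock-out, against 1.63, 1.67, 1.67 and 1.65 in the library labelled wild type. Those 4 classes lay above the microglia-like value in the library labelled knock-out and below it in the library labelled wild type.

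Ccl5 (RANTES), a product of T and natural killer cells as well as of activated macrophages, was a low-count member. It had 76 UMIs or 12.4 CPM (9.77 to 15.5) in microglia-like cells labelled knock-out and 637 UMIs or 40.9 CPM (37.8 to 44.2) in those of the library labelled wild type, a log2 ratio of -1.72 (-2.09 to -1.38). A single cell with 22 UMIs held 28.9% of it in the library labelled knock-out, and 7 cells with 10 or more held 25.1% in the library labelled wild type. The level in the unnamed class was higher, at 74.3 and 53.0 CPM, and that class supplied 45.2% and 26.3% of all Ccl5 UMIs of the libraries. In a look chosen after its values were seen, the 3 and 5 cells with at least 5 UMIs of 6 natural killer markers, all of them in unnamed cluster 4, carried 34.6% and 14.2% of the Ccl5 UMIs of their libraries. No microglia-like cell reached that number of marker UMIs. In microglia-like cells the natural killer markers summed to 7.996 and 13.7 CPM, with 1 of 6 and 0 of 6 at 0 and 4 of 6 lower in the library labelled knock-out, and the 4 T cell markers to 24.8 and 37.1 CPM, with 3 and 1 at 0. Their part in the Ccl5 difference was not tested.

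The ligands of Ccr2 also differed. Ccl2 (monocyte chemoattractant protein 1) had 364 CPM (349 to 379) in microglia-like cells labelled knock-out and 187 CPM (181 to 194) in those labelled wild type, a log2 ratio of 0.96 (0.88 to 1.04). Ccl7, its neighbour and another monocyte attractant, had 25.0 and 15.2 CPM from 153 and 237 UMIs, a log2 ratio of 0.71 (0.41 to 1.01). Ccl12, the mouse paralog of Ccl2, had 215 and 230 CPM, a log2 ratio of -0.09 (-0.19 to -0.0029), and the sign turned to 0.02 when each cell was thinned to 1500 UMIs and to 0.02 when each cell had the same weight. Ccl12 is therefore given no direction. Thus of these neighbours on chromosome 11, Ccl2 and Ccl7 stood higher in the library labelled knock-out while Ccl12 was nearly level.

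Ccl24 (eotaxin 2), known from alternatively activated macrophages, had 179 UMIs or 29.2 CPM (25.1 to 33.8) in microglia-like cells labelled knock-out and 90 UMIs or 5.78 CPM (4.65 to 7.11) in those labelled wild type, a log2 ratio of 2.34 (1.96 to 2.72). No thinned cell held more than 2 UMIs, and 3.70% and 1.06% of cells had any. Endothelial-like cells, at the same thinned depth, had a UMI in 1.08% and 0.679%, so the interval of the library labelled wild type, 0.672 to 1.58%, overlapped that of its endothelial-like cells, 0.339 to 1.21%, and that of the library labelled knock-out, 2.76 to 4.84%, lay above it. Over all UMIs, Ccl24 in endothelial-like cells stood at 5.77 CPM (3.66 to 8.66) for knock-out and 2.56 CPM (1.73 to 3.66) for wild type labels, below the microglia-like level in each. The 8 border-associated macrophage markers summed to 110 CPM in the library labelled knock-out and 118 CPM in the library labelled wild type, with 7 of 8 lower in the first and none at 0. Their part in the Ccl24 difference was not tested.

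Among the CXC members, Cxcl2, a neutrophil attractant, had 170 CPM (160 to 181) and 189 CPM (182 to 196) in the libraries labelled knock-out and wild type, a log2 ratio of -0.15 (-0.26 to -0.05). The 7 neutrophil markers summed to 8.81 CPM in microglia-like cells labelled knock-out and 157 CPM in those labelled wild type, with 6 of 7 lower in the first and none at 0. Cxcl10, the interferon-inducible attractant of T cells, had 64.6 CPM (58.4 to 71.3) and 82.3 CPM (77.9 to 86.9), a log2 ratio of -0.35 (-0.52 to -0.19). The part of the neutrophil markers in the Cxcl2 difference was not tested.

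Cxcl12 was the vascular member. It had 1768 CPM (1727 to 1810) in endothelial-like cells labelled knock-out and 1367 CPM (1346 to 1388) in those labelled wild type, 1119 and 794 CPM in pericyte or smooth muscle-like cells, and 1316 and 1053 CPM in erythrocyte-like cells, a class that also held 13813 and 14418 CPM of endothelial markers. The level in endothelial-like cells was 15.01 and 4.46 times that of microglia-like cells. Microglia-like cells had 118 CPM in the library labelled knock-out and 306 CPM in the library labelled wild type, a log2 ratio of -1.38 (-1.49 to -1.27). This difference moved with the endothelial markers in the same cells, 2113 and 6432 CPM, with 9 of 9 lower in the library labelled knock-out. The upper estimate of free RNA from those markers, taken out, exceeded the Cxcl12 of that class, leaving -62.5 and -165 CPM, so no level could be given. In thinned cells 17.3% and 35.7% of microglia-like cells had a Cxcl12 UMI, beside 17.9% and 31.6% of the 28 and 19 ependymal-like cells, with intervals of 6.06 to 36.9% and 12.6 to 56.6% in the ependymal-like cells.

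Outside the microglia-like class the ratios had another pattern. In endothelial-like cells 8 members passed the filter (Ccl7 and Ccl24 did not). Past 2-fold, 5 of them (Ccl3, Ccl5, Ccl12, Cxcl2 and Cxcl10) were lower in the library labelled knock-out, where the background was 2.83% of 6294 genes. Ccl3 had 279 CPM there and 914 CPM in the library labelled wild type, a log2 ratio of -1.71 (-1.80 to -1.62). Ccl4 had 1223 and 1488 CPM, a log2 ratio of -0.28 (-0.33 to -0.24). The 12 microglia markers in the same cells summed to 3379 CPM in the library labelled knock-out and 8246 CPM in the library labelled wild type, with 12 of 12 lower in the first and none at 0. These ratios rested on the clustering: at a finer resolution, 138 cells of unnamed cluster 4, all labelled knock-out, joined the endothelial-like class and 653 cells labelled wild type left it. With the finer clusters Ccl4 stood at 1848 and 1496 CPM, a log2 ratio of 0.31, while Ccl5 alone stayed past 2-fold lower and Ccl2 was past 2-fold higher at 1.03. In pericyte or smooth muscle-like cells the same 5 of 8 members were past 2-fold lower in the library labelled knock-out, where the background was 2.55% of 6755 genes. With cells thinned to 1500 UMIs, Ccl3 alone of those 5 members kept an interval excluding equality, at -1.43. Ccl12 and Cxcl2 had -1.24 and -1.33, Ccl5 -0.84 and Cxcl10 -0.33, each with an interval that includes 0. The microglia markers summed to 5271 and 9865 CPM there.

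**Figure D2:**
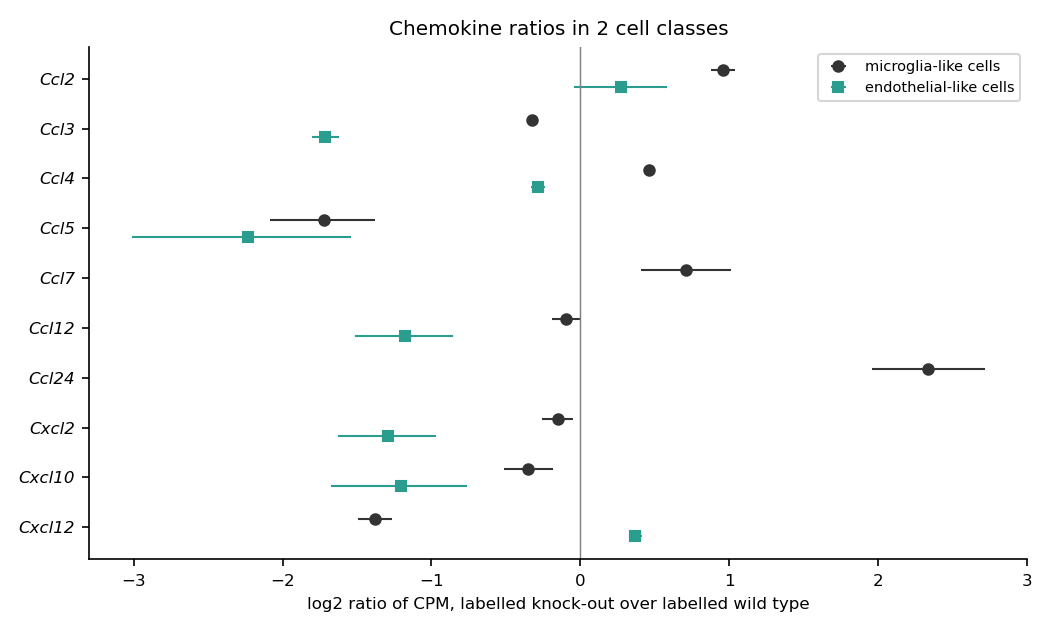
Log2 ratio of CPM, library labelled knock-out over library labelled wild type, for each chemokine in microglia-like cells (black circles) and endothelial-like cells (green squares; 8 members that passed the filter); bars are exact conditional binomial intervals and the grey line is equality. In microglia-like cells Ccl24 lies farthest right at 2.34 and Ccl5 farthest left at -1.72, and Ccl4 and Cxcl12 lie on opposite sides of equality in the 2 classes.

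Spread over single microglia-like cells set the inflammatory members apart from Cxcl12. Each cell was thinned to 1500 UMIs, and no cell had fewer. The Fano factor, variance over mean, is 1 when UMIs fall at random among equal cells, and its median over all genes compared was 1.01 in the library labelled knock-out and 1.00 in the library labelled wild type, with 95th percentiles of 1.18 and 1.10. Ccl4 had 12.1 and 7.27, which ranked 5 and 2 from the top among the 5745 genes in those libraries. Ccl3 had 6.97 and 4.75, Ccl2 5.43 and 2.57, Cxcl2 2.996 and 3.85, Ccl12 2.86 and 3.01, and Ccl7 2.65 and 3.01. Cxcl10 had 1.36 and 1.31. These 7 members thus lay above the 95th percentile in each library, and Ccl24, at 1.07 and 0.99, did not. The factor of a gene that varies also rises with its mean, and genes of like level were not set beside the members. Ccl4 averaged 13.6 and 10.1 UMIs per thinned cell and Ccl24 0.039 and 0.011, so part of these ranks may follow level. Cxcl12, at 1.00 and 1.01, did not vary beyond counting, and its shares of cells with a UMI, 17.3% and 35.7%, were near the 17.1% and 35.6% that random counting gives at its mean. The Fano factor of Ccl5 in the library labelled knock-out, 6.11, rested on 17 cells, the highest with 13 UMIs, and in the library labelled wild type it was 1.69.

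Nearly every microglia-like cell carried Ccl4, and the cells differed in amount. A Ccl4 UMI was found in 98.2% of cells labelled knock-out and 98.0% of cells labelled wild type, beside 83.3% and 87.8% of endothelial-like cells at the same depth, so the share alone says little. The libraries overlapped over most of the range, with 10th percentiles of 2 UMIs in each, and differed most at the high end: medians were 10 and 8 Ccl4 UMIs per microglia-like cell, the 90th percentiles were 30 and 21, and 23.4% and 11.5% of cells had 20 or more. Ccl3 differed at the low end, with 20.8% of cells labelled knock-out and 5.80% of cells labelled wild type at 0 UMIs, medians of 2 and 4 and 90th percentiles of 11 and 12. In endothelial-like cells a Ccl3 UMI was found in 34.7% and 74.3%, a share that was higher in the library labelled wild type, and its part in the share of microglia-like cells at 0 was not tested. At the high end, 2.73% of cells labelled knock-out and 1.80% of cells labelled wild type had 20 or more Ccl3 UMIs.

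**Figure D3:**
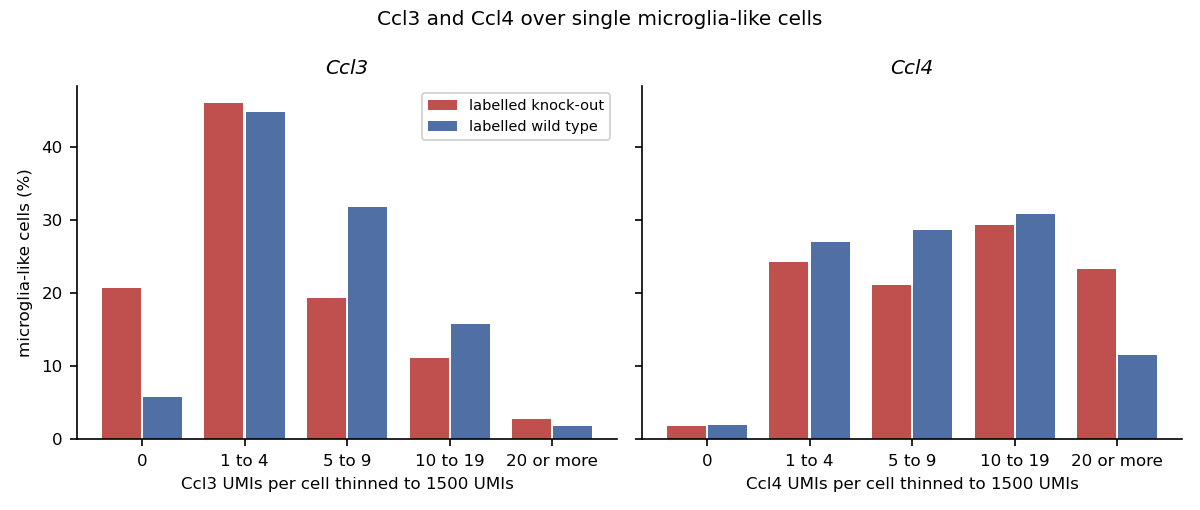
Share of microglia-like cells (percent) in each range of Ccl3 UMIs (left) and Ccl4 UMIs (right) per cell thinned to 1500 UMIs, red for the 1353 cells labelled knock-out and blue for the 2172 cells labelled wild type. Cells with no Ccl3 UMI are 20.8% and 5.80%, and cells with 20 or more Ccl4 UMIs are 23.4% and 11.5%.

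The monocyte attractants were concentrated in fewer cells. Ccl2 was found in 25.6% of cells labelled knock-out and 16.7% of cells labelled wild type, beside 4.69% and 4.01% of endothelial-like cells. Counting at random would have placed it in 44.3% and 24.7% of microglia-like cells. The 10% of cells with most Ccl2 held 71.4% and 76.3% of its UMIs, and the highest cell had 36 and 15. Such a share is high by counting alone for a sparse gene. It was 61.0% and 41.7% for Cxcl12, which did not vary beyond counting. Cells with at least 5 Ccl2 UMIs were 34 of the library labelled knock-out, with 37.4% of the Ccl2 UMIs, and 15 of the library labelled wild type, with 16.2%. Ccl12 was found in 21.4% and 22.1% of cells, beside 4.45% and 7.46% of endothelial-like cells. Ccl7 was found in 2.29% and 1.70%, beside 0.841% and 0.740%, and a single cell with 7 UMIs held 14.0% of Ccl7 in the library labelled knock-out. Cxcl2 was found in 13.01% and 14.4% of microglia-like cells, beside 3.37% and 7.59% of endothelial-like cells. Cxcl10 was found in 5.91% and 9.76% of microglia-like cells, beside 1.32% and 3.52% of endothelial-like cells.

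The 9 members without Cxcl12 together took a median of 1.0% of a cell's UMIs in the library labelled knock-out and 0.933% in the library labelled wild type. The 90th percentiles were 2.8% and 2.13% and the highest cells reached 7.47% and 12.5%. The median cell of each library had UMIs of 3 members, and the most in any cell was 7. The 90th percentile was thus higher in the library labelled knock-out, and the single highest cell belonged to the library labelled wild type.

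Finer clusters of microglia-like cells held different amounts within a library. Since chemokine genes were kept out of the clustering, these levels did not define the clusters, although genes correlated with them may have. In the library labelled knock-out, cluster 0 (1004 cells) had 10194 CPM of Ccl4, 3167 of Ccl3 and 200 of Cxcl2, and cluster 8 (343 cells) had 6114, 2146 and 45.9 CPM. In the library labelled wild type, cluster 6 (596 cells, led by Spp1, Lpl, Il1b and Tnf) had 9204 CPM of Ccl4, 5192 of Ccl3 and 380 of Cxcl2, cluster 4 (692 cells with a median of 9580.5 UMIs) had 6815, 3594 and 153 CPM, and cluster 2 (870 cells) had 4694, 2727 and 79.9 CPM. For Ccl4 the clusters of the library labelled wild type were farther apart than the libraries as wholes, at 9400 and 6830 CPM. Cxcl10 followed the same order within each library, at 68.4 and 23.7 CPM in clusters 0 and 8 and at 110, 86.0 and 49.5 CPM in clusters 6, 4 and 2. Ccl2 did not: it had 370 and 353 CPM in the clusters labelled knock-out and 158, 201 and 192 CPM in clusters 6, 4 and 2 of the library labelled wild type, without overlap of the libraries. Ccl24 had the opposite order to Ccl4 in the library labelled knock-out, with 24.3 CPM in cluster 0 and 49.0 CPM in cluster 8.

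**Figure D4:**
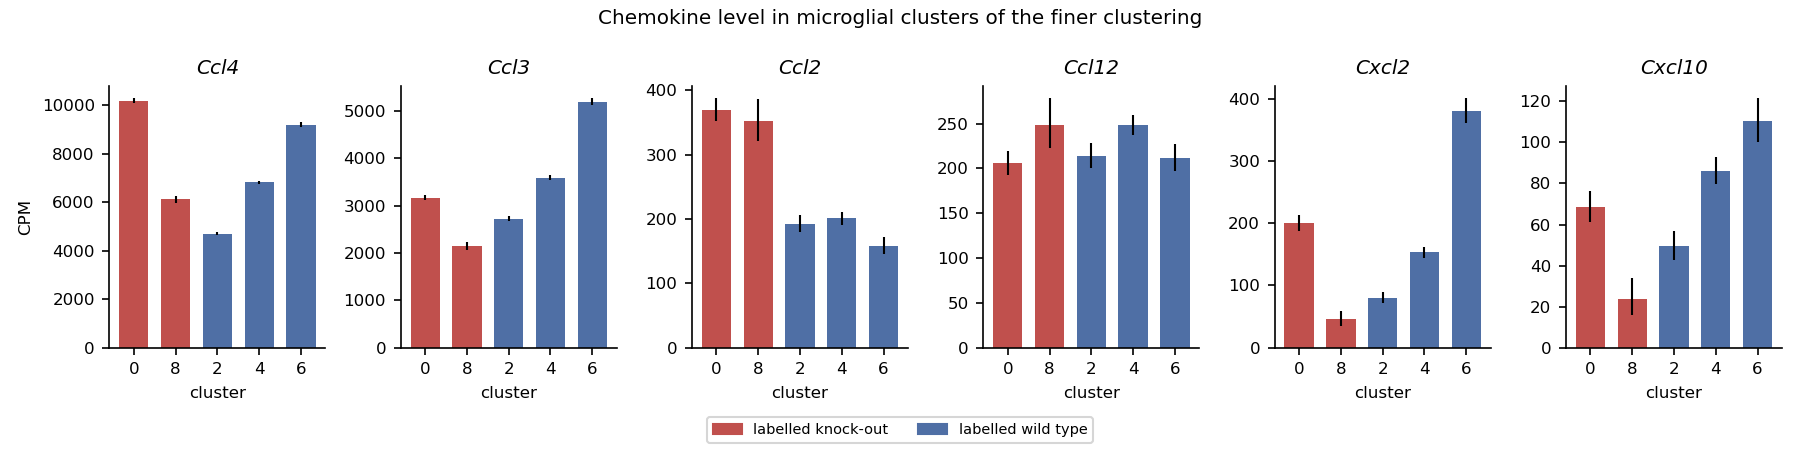
CPM of 6 chemokines in the microglial clusters of the finer clustering, red for clusters 0 and 8 (cells labelled knock-out) and blue for clusters 2, 4 and 6 (cells labelled wild type); bars are exact Poisson intervals. Ccl4, Ccl3, Cxcl2 and Cxcl10 differ between clusters of the same library, and Ccl2 stands at 353 CPM or more in red clusters and at 201 CPM or less in blue clusters.

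Co-expression over single cells was given within each library, with 1353 and 2172 thinned cells, as Pearson's r of log2(UMIs + 1). Points of a library share its sequencing and its free RNA. Ccl3 and Ccl4 were the only pair of 45 with r over 0.2, at 0.61 in the library labelled knock-out and 0.54 in the library labelled wild type. Of the 10% of cells with most Ccl3 (135 and 217 cells), 51.1% and 46.5% were also among the 10% with most Ccl4. All other pairs were weak, which in counts this sparse is no finding: Ccl2 and Ccl7 had 0.08 and 0.13, Ccl2 and Ccl12 0.11 and 0.11, and Ccl4 and Cxcl2 0.10 and 0.14.

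**Figure D5:**
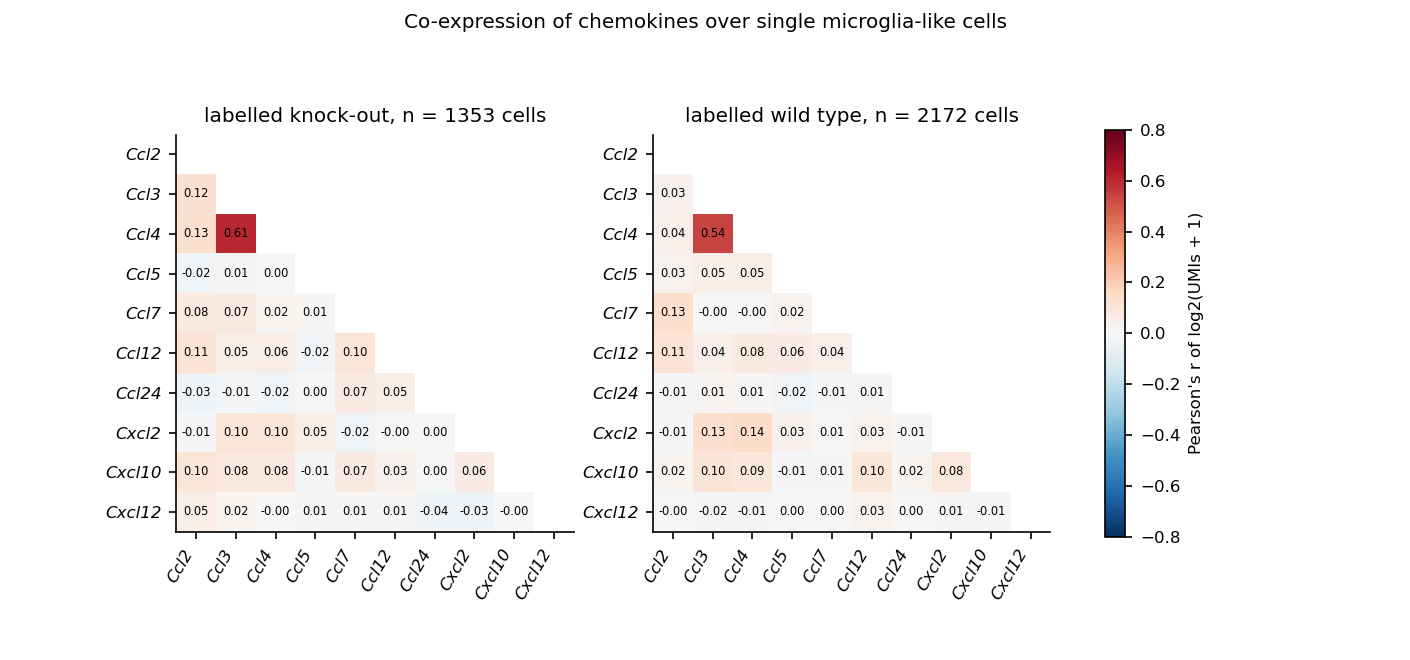
Pearson's r of log2(UMIs + 1) for each pair of chemokines over thinned microglia-like cells, on the left for the 1353 cells labelled knock-out and on the right for the 2172 cells labelled wild type, on 1 colour scale. Only the square of Ccl3 and Ccl4 is deep red, at 0.61 and 0.54.

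The genes most like each member were ranked by the lower r of the libraries among 5735 genes that are no members. For Ccl4 they were Cd83, an activation marker of antigen-presenting cells (0.30 and 0.29), Nfkbia, the inhibitor that NF-kB induces (0.27 and 0.29), and the AP-1 gene Junb (0.22 and 0.29). For Ccl3 they were Cd83 (0.25 and 0.26), Nfkbia (0.18 and 0.24) and the atypical chemokine receptor gene Ccrl2 (0.15 and 0.19). For Cxcl2 they were Nfkbia (0.19 and 0.14), Cd83 (0.12 and 0.15) and Gadd45b (0.13 and 0.12). For Ccl12, Ccl2 and Cxcl12 the best r values stayed at or below 0.11, and the leading genes were Adamts1, Klf6 and Tnf for Ccl12, Hsp90ab1, Il10rb and Slc9a3r1 for Ccl2, and Abi1, Phospho2 and Tor2a for Cxcl12. Ccl5, Ccl7, Ccl24 and Cxcl10 had UMIs in fewer than 100 cells of at least 1 library and were not ranked.

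Cells with more summed RNA of NF-kB genes, mostly Nfkbia, carried more Ccl3, Ccl4 and Cxcl2. The summed UMIs of 16 genes of NF-kB subunits and inhibitors had r of 0.31 and 0.30 with Ccl4, 0.21 and 0.25 with Ccl3, and 0.20 and 0.16 with Cxcl2, in the libraries labelled knock-out and wild type. Most of that sum was Nfkbia, at 4556 and 2861 CPM in microglia-like cells, beside 397 and 218 CPM for Nfkbiz, the next gene. Nfkbia was already among the genes most like each of these 3 members, so the sum largely repeats that result. In the highest of 3 equal groups of cells by that sum, Ccl4 averaged 17.0 UMIs in the library labelled knock-out and 13.3 in the library labelled wild type, and in the lowest group 9.37 and 7.40. Cxcl2 was found in 20.6% and 19.9% of cells of the highest group and 6.43% and 9.53% of cells of the lowest. The groups were formed within each library and are not matched: the sum averaged 15.4 and 9.64 UMIs in the highest group and 3.0 and 2.01 in the lowest. Within each of these groups Ccl4 was higher and Ccl3 lower in the library labelled knock-out: Ccl3 averaged 5.46 and 7.41 UMIs in the highest group and 3.34 and 4.32 in the lowest. Ccl4 ran against the summed microglia markers, with r of -0.24 and -0.27 over these cells of fixed total.

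The pathway genes themselves mostly stood higher in the library labelled knock-out. Of 16 NF-kB subunits and inhibitors 12 were compared, 8 with a ratio above 0 and 4 below, where 46.5% of all genes compared were above 0. Of the 12, 7 had an interval above 0 (29.6% of all genes) and 2 were past 2-fold higher (1.83%), and the median log2 ratio was 0.52 beside -0.04 over all genes compared. Tnfaip3, a feedback inhibitor of NF-kB, had 281 CPM in microglia-like cells labelled knock-out and 90.8 CPM in those labelled wild type, a log2 ratio of 1.63 (1.53 to 1.73). The subunit gene Nfkb1 had 162 and 79.7 CPM, a log2 ratio of 1.03. The atypical inhibitor genes Nfkbiz and Nfkbid had log2 ratios of 0.86 and 0.78. Of 22 immediate early genes 20 were compared, 17 above and 3 below 0, with a median of 0.56, 16 with an interval above 0 and 3 past 2-fold higher, beside the same shares over all genes. They were led by Nr4a1 at 1.49, Zfp36 at 1.11, Egr2 at 1.00 and Junb at 0.94. These genes respond to cell handling as well as to other signals, and their part in the Ccl4 and Ccl2 differences was not tested.

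Several receptors of the members had few UMIs in these cells. Ccr2 had 6 and 16 UMIs in microglia-like cells labelled knock-out and wild type, or 0.979 and 1.03 CPM, Ccr1 5.06 and 8.54 CPM, Cxcr4 3.26 and 0.899 CPM, Cxcr3 0.979 and 0.321 CPM and Cxcr2 1.63 and 1.09 CPM. The scavenger receptors were vascular: Ackr1, which takes up many inflammatory chemokines, had 67.2 and 50.1 CPM in endothelial-like cells, and Ackr3, the scavenger of Cxcl12, 46.4 and 43.6 CPM in pericyte or smooth muscle-like cells. Among chemokine receptor genes at the level set for comparison, Ccrl2 and Cx3cr1 had higher levels in microglia-like cells labelled knock-out (log2 ratios 0.59 and 0.43), and the interval of Ccr6 included 0.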

How the data were processed

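The deposited matrices hold unnormalized UMI counts, per the file headers and values; barcode and gene lists carry other, non-numeric content. STAR, Cell Ranger 2.0.1, Seurat 2.1.0, mm10 and GRCm38.p5 appear in the submitters' processing notes without roles; the sources used here do not say how barcodes were kept. Per the labels' protocols, collagenase (2 mg/ml, 37 °C, 30 min) freed the cells, and 22800 (knock-out) and 23500 (wild type) cells were sorted, of which 2600 and 4500 were recovered.

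Barcodes under 300 genes or over 10% mitochondrial UMIs were dropped. Both libraries were clustered together (scanpy 1.11.5, Leiden 0.5 with leidenalg 0.10.2, 2000 variable genes, 30 components, 15 neighbours), without chemokine genes, Runx1 and sex-linked genes. Clusters were named "-like" from 18 marker lists. A name needed at least 3 markers and 50% of its list. It also needed 2 markers among the 10 leading genes or, failing that, a share of its list with no rival. This scoring was set with the clusters known. No doublets were removed, except as an alternative. UMIs were summed per class and library and divided by all UMIs (CPM; exact Poisson intervals); log2 ratios carry exact conditional binomial intervals and shares exact Clopper-Pearson intervals. Genes with at least 20 CPM in 1 library were compared. Named genes were all members, Runx1, up to 4 of each list with the largest ratio, compared receptors of members, and the 3 genes most like a member. A receptor gene is not reported here. Scripts were tested on simulated data. Members and lists were chosen with earlier results of these data known.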

Additional observations from a re-analysis of the deposited data

Results flagged for a closer look

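Ccl4 and Cxcl12 had ratios of opposite sign in different cell classes of the same libraries; with 1 library per group the difference between classes was not tested. Ccl4 had a log2 ratio, library labelled knock-out over library labelled wild type, of -0.28 in endothelial-like cells and -0.27 in pericyte or smooth muscle-like cells, and of 0.46 in microglia-like cells. The endothelial-like value turned to 0.31 at the finer clustering. Cxcl12 had 0.37 in endothelial-like cells and 0.50 in pericyte or smooth muscle-like cells, and -1.38 in microglia-like cells, which held 2113 CPM of endothelial markers in the library labelled knock-out and 6432 CPM in the library labelled wild type.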

How the results depend on the processing

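No paired analysis was possible because each group held 1 library, and for the same reason no library could be left out. In microglia-like cells 9 of 10 members kept their direction under every alternative tried (scaling by the median gene, equal cell weights, thinning, a stricter cell filter, doublet removal, chemokine genes kept in clustering, finer clusters, free RNA taken out), with log2 ratios of 0.13 to 0.50 for Ccl4, 0.62 to 1.04 for Ccl2, 1.89 to 2.39 for Ccl24, -0.64 to -0.29 for Ccl3 and -1.40 to -1.23 for Cxcl12, which had no value once free RNA was taken out. Ccl12 turned to 0.025 with equal cell weights and 0.024 with thinning to 1500 UMIs. Ccl2 passed 2-fold with thinning, at 1.04. Ccl5 ranged from -2.33 under the stricter filter to -1.27 with thinning. Members above 0 numbered 4 or 5. Their median was -0.41 with free RNA taken out and otherwise -0.14 to -0.06. The r of Ccl3 and Ccl4 was 0.57 and 0.48 in the libraries labelled knock-out and wild type with thinning to 1000 UMIs, and 0.64 in the library labelled wild type unthinned. In endothelial-like cells the finer clusters, which hold other cells, turned Ccl4 to 0.31 and Ccl12 to 0.14; keeping chemokine genes in clustering and thinning were tried there after seeing the data and turned no sign, but with thinning Ccl12 had -0.76 there, and in pericyte or smooth muscle-like cells Ccl3 alone stayed past 2-fold with an interval excluding equality, at -1.43, beside -1.24 for Ccl12 and -1.33 for Cxcl2. Counts under 100 UMIs, as of Ccl5 in the library labelled knock-out and Ccl24 in the library labelled wild type, limit precision.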

Other observations

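Other chemokines of microglia-like cells were few. Of 27 further chemokine genes 23 were in the files and 3 were compared. Ccl6 had 361 CPM in the library labelled knock-out and 203 CPM in the library labelled wild type, a log2 ratio of 0.83. Ccl9 had 435 and 237 CPM, a log2 ratio of 0.88. The transmembrane chemokine gene Cxcl16 had 72.0 and 105 CPM, a log2 ratio of -0.55.

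Genes of the type I interferon response were mostly lower in microglia-like cells labelled knock-out. Of 18 genes 11 were compared, 10 below and 1 above 0, where 46.5% of all genes compared were above 0. Of the 11, 9 had an interval below 0 (36.1% of all genes) and 4 were past 2-fold lower (5.31%). Their median log2 ratio was -0.89 beside -0.04 over all genes compared; Ifitm3 had -1.69, Usp18 -1.65, Ifit1 -1.25 and Rtp4 -1.17. Cxcl10, also an interferon target, had -0.35. The same cells held 2113 and 6432 CPM of endothelial markers in the libraries labelled knock-out and wild type. The part of free RNA in the differences of these genes, and of the heat shock genes below, was not tested. Of 12 inflammatory cytokine genes 7 were compared, 5 above and 2 below 0, 4 with an interval above 0 (29.6% of all genes) and none past 2-fold, with a median of 0.34; Il1a and Tnf had 0.64 each, Csf1 0.52 and Il1b 0.34. All 11 heat shock genes were compared, 10 above and 1 below 0, where 46.5% of all genes were above 0. Of the 11, 9 had an interval above 0 (29.6% of all genes). Past 2-fold, 1 was higher (1.83%) and 1 lower (5.31%), and the median was 0.34. Hspa1b had 1.15, Hsph1 0.96, Hsp90aa1 0.66 and the small heat shock gene Hspb1 -1.18.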
